A study of Parasteatoda tepidariorum with 10 samples.

Results

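Of 7915 regions of the house spider *Parasteatoda tepidariorum* genome in which both wild-type libraries of stage 3 had an ATAC-seq peak, 1727 had no peak in any of the 4 libraries of stages 1 and 2. These stage-3-only regions made up 21.8% of the stage-3 regions and 4.18% of the 41314 regions of the 6 wild-type lists. They were selected on measured values: each wild-type list was reduced to its 12494 peaks of highest signal, which is the length of the shortest list, and peaks that overlapped by at least 1 bp were merged. The signal of a peak is the peak caller's area of significance along the peak, so it grows with both height and width. The absence of an early peak therefore means absence from the stronger part of an early list, and the weaker early peaks are counted separately in what follows. The remaining 6188 stage-3 regions, which had a peak in 1 or more of the early lists, served for comparison.

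ATAC-seq reads out open chromatin, because the Tn5 transposase inserts adapters where DNA is not covered by nucleosomes. In early animal embryos, chromatin at promoters and enhancers opens progressively as the zygotic genome becomes active, and pioneer factors such as GATA proteins are known for binding closed chromatin in other animals. In this spider the stages examined precede and span the onset of germ disc formation, the step in which cells gather at one pole of the spherical embryo. *fuchi* encodes a GATA-like transcription factor that acts in this process, while *Pt-hh*, the *hedgehog* gene of the spider, encodes a secreted signalling protein involved in patterning the body axis.

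The 10 libraries formed 5 groups of 2, all from entire embryos of the same laboratory isolate. Wild-type embryos were taken at stage 1 (9 h after egg laying), stage 2 (12 h) and stage 3 (18 h), with 200 embryos per library at stages 1 and 2 and 40 embryos per library at stage 3. Stage-3 embryos after *fuchi* parental RNA interference (pRNAi) and after *Pt-hh* pRNAi, also 40 per library at 18 h, came from mothers injected several times with double-stranded RNA against the gene. The wild-type and pRNAi females belonged to labelled lines: line 39 for the first replicate of each wild-type stage and for *Pt-hh* pRNAi replicate 2, line 40 for wild-type stage 2 replicate 2, wild-type stage 3 replicate 2, both *fuchi* pRNAi replicates and *Pt-hh* pRNAi replicate 1, and KK-274 for wild-type stage 1 replicate 2. The stage and the number of embryos per library changed together, so their contributions to the stage-3-only set cannot be told apart. Entire embryos were used, so a weak peak from many nuclei and a strong opening in few nuclei cannot be told apart either. The extent of the knockdown was not measured in these files.

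The deposited wild-type lists held between 12494 and 137892 peaks, and the pRNAi lists between 10616 (*fuchi* pRNAi replicate 1) and 23045 (*Pt-hh* pRNAi replicate 1). At the equal length of 12494, the weakest retained peak had a signal of 279 and 530 in the stage-1 replicates, 405 and 276 at stage 2, and 312 and 200 at stage 3. No read totals were used here, so depth is unknown and the intervals in the text cover only the counting of regions.

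The stage-3-only regions were weaker and narrower than the other stage-3 regions, although they reached nearly the top of the lists. Strength was expressed as the percentile of the strongest peak in its own stage-3 list, with 100 for the strongest, averaged over both replicates. The median percentile was 42.4 for the stage-3-only regions (middle 50% from 28.1 to 58.8, full range 1.61 to 97.9) and 66.5 for the others (46.0 to 83.7). In replicate 1 the medians were 46.2 and 69.5, and in replicate 2 they were 41.5 and 70.0. The percentile rose steadily with the number of early lists that held a peak: the medians were 42.4, 52.7, 62.9, 74.4 and 87.1 for 0, 1, 2, 3 and 4 lists. When the percentile scale was divided into 4 equal bands, the lowest to highest bands held 328, 733, 492 and 174 stage-3-only regions. They formed 47.9% of all stage-3 regions in the lowest band and 6.87% in the highest. Strength and early absence were both part of the selection, so these values are a description without a test.

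The median width of the stage-3-only regions was 589 bp (middle 50% from 452 to 859.5 bp, full range 184 to 6106 bp), against 796 bp for the others. The narrower width held within each band of percentile, with medians of 480, 552, 636.5 and 921.5 bp from the lowest to the highest band against 631, 665, 751 and 967.5 bp. Width spans the merged peaks of all 6 wild-type lists, so early peaks can widen only the other regions, in every band. The strongest stage-3 peak alone differed by less, with median widths of 554 and 463 bp in replicates 1 and 2 against 604 and 534 bp. How much of the width difference comes from merged early peaks was not tested. Signal per base pair of the strongest peak was also lower, with medians of 0.955 and 0.669 in stage-3 replicates 1 and 2 against 1.21 and 0.898 in the other regions. At the summit, the median −log10 p-value was 3.97 and 3.42 in the 2 replicates against 4.39 and 3.83, and the highest value of any stage-3-only region was 6.49 in replicate 1 while the other regions reached 21.3. Most regions were simple: 1704 (98.7%) held 1 peak in each stage-3 list. The 2 summits of a region lay a median of 36 bp apart and within 100 bp in 75.7% of regions, close to the 30 bp and 77.5% of the others.

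**Figure D1:**
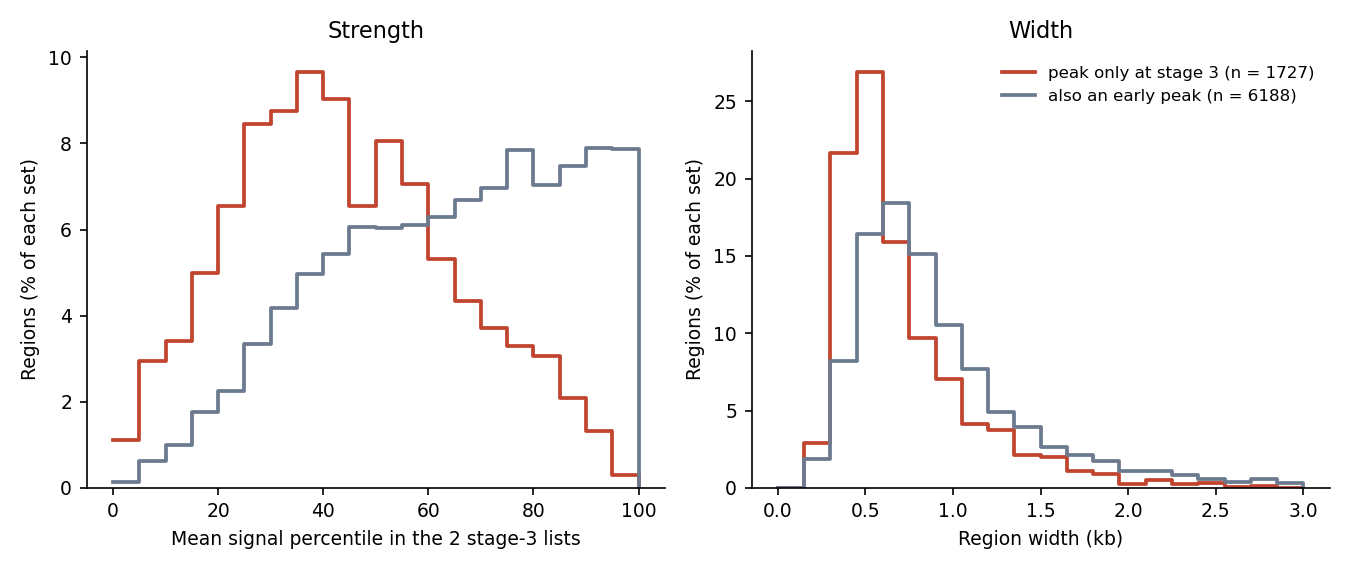
Strength (left, mean signal percentile in both wild-type stage-3 lists, in steps of 5) and width (right, in kb up to 3 kb) of the 1727 stage-3-only regions (red) and the 6188 other stage-3 regions (grey), as a percentage of each set. The stage-3-only regions lie lower on both axes, with medians of 42.4 against 66.5 in percentile and 589 bp against 796 bp in width. The width of the other regions includes their merged early peaks.

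The replicates ranked the stage-3-only regions less alike than the other regions. The percentile of a region differed between the stage-3 replicates by a median of 17.8 points, against 13.0 points for the others, and 35.9% of the regions were more than 25 points apart, against 29.0%. Across the 1727 regions the percentiles of the replicates had a Pearson r of 0.412 and a Spearman rho of 0.395, against 0.530 and 0.618 across the others. These correlations run over regions of the same pair of libraries and describe those libraries only.

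The 10 strongest stage-3-only regions were all broad, from 1639 to 6106 bp, and their summits were not extreme, with −log10 p-values between 3.29 and 4.99 in stage-3 replicate 1. The first, at 8278421 to 8281234 of scaffold NW_018376213.1, ranked 79 and 440 by signal in the stage-3 lists. It had a peak in only 1 early library (stage 1 replicate 1, rank 21195), ranked 198 and 11333 in the *Pt-hh* pRNAi lists and 3018 in *fuchi* pRNAi replicate 2, and had no peak in *fuchi* pRNAi replicate 1. Its rank thus differed widely between replicates of the same treatment. Another region of this group lay further along the same scaffold, at 8298120 to 8299795, with stage-3 ranks of 999 and 600.

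The widest stage-3-only region, 6106 bp at 2234444 to 2240549 of scaffold NW_018373628.1, ranked 237 and 592 at stage 3 and had a weaker peak in all 4 early libraries, at ranks 16465, 28008, 23906 and 16097. Ranks were even for the region at 486086 to 487885 of scaffold NW_018373202.1. It ranked 530 and 569 in the wild-type stage-3 lists, 945 and 1034 after *fuchi* pRNAi, and 779 and 711 after *Pt-hh* pRNAi. Its early peaks ranked 25426 (stage 1 replicate 2), 33741 and 14805 (both stage-2 replicates). Higher ranks after *Pt-hh* pRNAi than in the wild type were seen at 2341345 to 2346592 of scaffold NW_018383145.1, with 642 and 758 in the wild type and 181 and 433 after *Pt-hh* pRNAi. That region had a *fuchi* pRNAi peak in replicate 2 only, at rank 774. The region at 1780359 to 1781997 of scaffold NW_018367957.1 ranked 1200 and 409 in the wild type, 3113 and 278 after *fuchi* pRNAi, and 517 and 532 after *Pt-hh* pRNAi. At 14216258 to 14218187 of scaffold NW_018376834.1, the ranks were 363 and 1285 in the wild type, 8289 and 5226 after *fuchi* pRNAi, and 496 and 655 after *Pt-hh* pRNAi. The region at 2992545 to 2996719 of scaffold NW_018374158.1 ranked 538 and 581 in the wild type, 8693 and 2163 after *fuchi* pRNAi, and 277 and 1418 after *Pt-hh* pRNAi. Of the 5 regions with a peak in both *fuchi* pRNAi lists, 4 had both of them behind all wild-type and *Pt-hh* pRNAi ranks. The regions were chosen for high wild-type ranks, so only the *Pt-hh* pRNAi ranks are a comparison the choice did not use. Counting all 10 regions, 5 had a peak in *fuchi* pRNAi replicate 1, whereas all 10 had one in *fuchi* pRNAi replicate 2 and in both full *Pt-hh* pRNAi lists.

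The other broad stage-3-only regions were therefore examined together with these. With all pRNAi lists at 10616 peaks, the 31 stage-3-only regions of 2 kb or more had a peak in 22.6% of cases in *fuchi* pRNAi replicate 1 and in 87.1% in replicate 2. In the *Pt-hh* pRNAi replicates the shares were 90.3% and 61.3%. The 370 other stage-3 regions of this width gave 69.7%, 89.5%, 90.5% and 83.2% in the same order. The limit of 2 kb was set after these values were seen, 6 of the 31 regions are among the 10 strongest, and *fuchi* pRNAi replicate 1 also had the smallest median peak width of the 6 stage-3 lists, 451 bp. At equal length the replicates of both treatments were therefore apart. In the full lists the 31 regions had a peak in 22.6% and 87.1% of cases after *fuchi* pRNAi. All of them had one in *Pt-hh* pRNAi replicate 1 and 90.3% in replicate 2. The full *Pt-hh* pRNAi lists hold 23045 and 19732 peaks, against 10616 and 13677 for *fuchi* pRNAi. The narrower *Pt-hh* pRNAi gap in the full lists cannot be told apart from list length.

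Weaker early peaks were found in many stage-3-only regions, in a share that depended on the length of the early lists. In the full deposited lists, 1343 (77.8%, 95% Wilson interval 75.7 to 79.7%) overlapped a weaker peak in at least 1 early library, and 384 (22.2%) overlapped none. The interval covers only the counting of regions. With 1 wild-type library left out at a time, the share ran from 62.2% to 75.4%. Each omission also changes the rule or removes a list that can hold a weaker peak, so this range is not a spread between libraries. The weaker peaks were found in 280 regions (16.2%) for stage 1 replicate 1, 718 (41.6%) for stage 1 replicate 2, 846 (49.0%) for stage 2 replicate 1 and 286 (16.6%) for stage 2 replicate 2. The high shares belonged to the 2 longest lists, which held 137892 and 51893 peaks. With all 4 early lists at the length of the shortest, 23985 peaks, the shares were 16.2%, 7.87%, 22.6% and 16.6%, and 842 regions (48.8%) overlapped at least 1 weaker peak.

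Both stage-1 libraries had a weaker peak in 125 regions (7.24%) and both stage-2 libraries in 155 (8.98%). The replicate with the shorter list had one in only 16.2% of regions at stage 1 and 16.6% at stage 2, which caps these shares. Whether the replicates shared more than unrelated lists of these lengths would was not tested. Stage 2 alone held weaker peaks in 470 regions (27.2%), stage 1 alone in 366 (21.2%), and both stages in 507 (29.4%). By number of early libraries, 384 regions had a weaker peak in none, 723 in 1, 471 in 2, 131 in 3 and 18 in all 4. Their stage-3 percentile followed the same order, with medians of 35.8, 42.0, 46.2, 54.9 and 69.4.

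**Figure D2:**
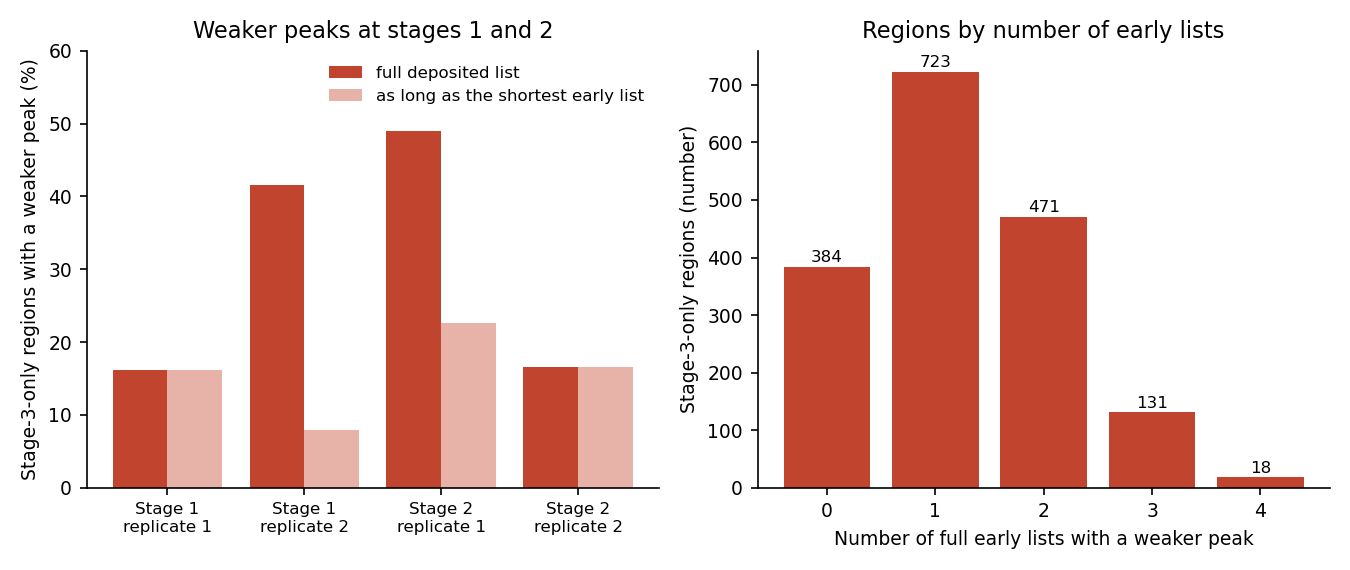
Left, percentage of the 1727 stage-3-only regions with a weaker peak in each library of stages 1 and 2, in the full deposited list (dark) and with all early lists at 23985 peaks (light). Right, number of regions by the number of full early lists with a weaker peak. The 2 long lists give 41.6% and 49.0%, which fall to 7.87% and 22.6% at equal length, and 384 regions have no early peak in any list.

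The limit of the rule is a rank, and regions on its 2 sides had nearly the same early signal. Just inside it, the region at 3222317 to 3222809 of scaffold NW_018376604.1 had an early peak of rank 12497 in stage 2 replicate 2, with a signal of 275.503, and a mean stage-3 percentile of 82.0. Just outside it, the region at 416910 to 418322 of scaffold NW_018380522.1 had an early peak of rank 12493 in the same library, with a signal of 275.557, and a mean percentile of 70.2. At the lower end of strength, the weakest member lay at 585854 to 586431 of scaffold NW_018377141.1. It ranked 12483 and 12104 at stage 3, at a percentile of 1.61, had no early peak, and had a peak in only 1 pRNAi library (*Pt-hh* pRNAi replicate 2, rank 18820).

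The pRNAi libraries took no part in the selection, so the fate of these regions after knockdown could be compared. With each pRNAi list at 10616 peaks, 743 of the 1727 regions (43.0%) had a peak in *fuchi* pRNAi replicate 1 and 977 (56.6%) in replicate 2. For *Pt-hh* pRNAi the numbers were 1242 (71.9%) and 1213 (70.2%). Every *fuchi* pRNAi value was below every *Pt-hh* pRNAi value, with group means of 49.8% ± 9.58 and 71.1% ± 1.19 (SD, n = 2 each). The difference of -21.3 percentage points gave p = 0.333 in an exact two-sided permutation test over the 4 libraries, the smallest value that 2 against 2 allows, so the design cannot place it below 0.05. Within line 40, the mean of both *fuchi* pRNAi replicates minus *Pt-hh* pRNAi replicate 1 was -22.1 points, a value that rests on a single *Pt-hh* pRNAi library and has no spread of its own.

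The same lists kept more of the other stage-3 regions: 80.0% and 84.2% after *fuchi* pRNAi, and 86.0% and 87.7% after *Pt-hh* pRNAi. The stage-3-only share minus that of the other regions was -37.0 and -27.6 points in *fuchi* pRNAi replicates 1 and 2 and -14.0 and -17.4 points in *Pt-hh* pRNAi replicates 1 and 2. It was lower in 4 of 4 libraries, with a mean difference of -24.0 ± 10.4 points (SD, n = 4). An exact two-sided sign-flip permutation test gave p = 0.125, the smallest value 4 libraries allow. These libraries are 2 of each treatment, so the SD includes the gap between treatments. The rule also left the stage-3-only regions weaker, so this test cannot separate early absence from strength. The mean difference was -32.3 points after *fuchi* pRNAi and -15.7 points after *Pt-hh* pRNAi. The gap of -16.6 points between them had p = 0.333 in an exact permutation test, again the smallest possible.

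Weaker wild-type peaks were kept less often in every library, and the stage-3-only regions were the weaker set, so the shares were also compared within bands of stage-3 percentile. From the lowest to the highest band, *fuchi* pRNAi replicate 1 kept 28.7%, 40.2%, 48.0% and 67.8% of the stage-3-only regions, and replicate 2 kept 35.7%, 50.1%, 69.1% and 87.9%. *Pt-hh* pRNAi replicate 1 kept 49.4%, 67.5%, 85.0% and 96.0%, and replicate 2 kept 46.6%, 67.5%, 82.7% and 90.8%. The bands matched strength only coarsely: the median percentiles were 17.5, 37.0, 59.2 and 82.7 against 18.6, 39.6, 63.0 and 87.9 in the other regions. How much of the differences below follows strength within a band was not tested. Within the bands, the share minus that of the other stage-3 regions lay between -31.4 and -22.0 points in *fuchi* pRNAi replicate 1 and between -20.1 and -8.72 points in replicate 2. It lay between -4.57 and -1.31 points in *Pt-hh* pRNAi replicate 1 and between -9.10 and -5.85 points in replicate 2. In all 4 libraries the difference was thus smaller in every band than over all regions, and it kept its sign in every band.

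**Figure D3:**
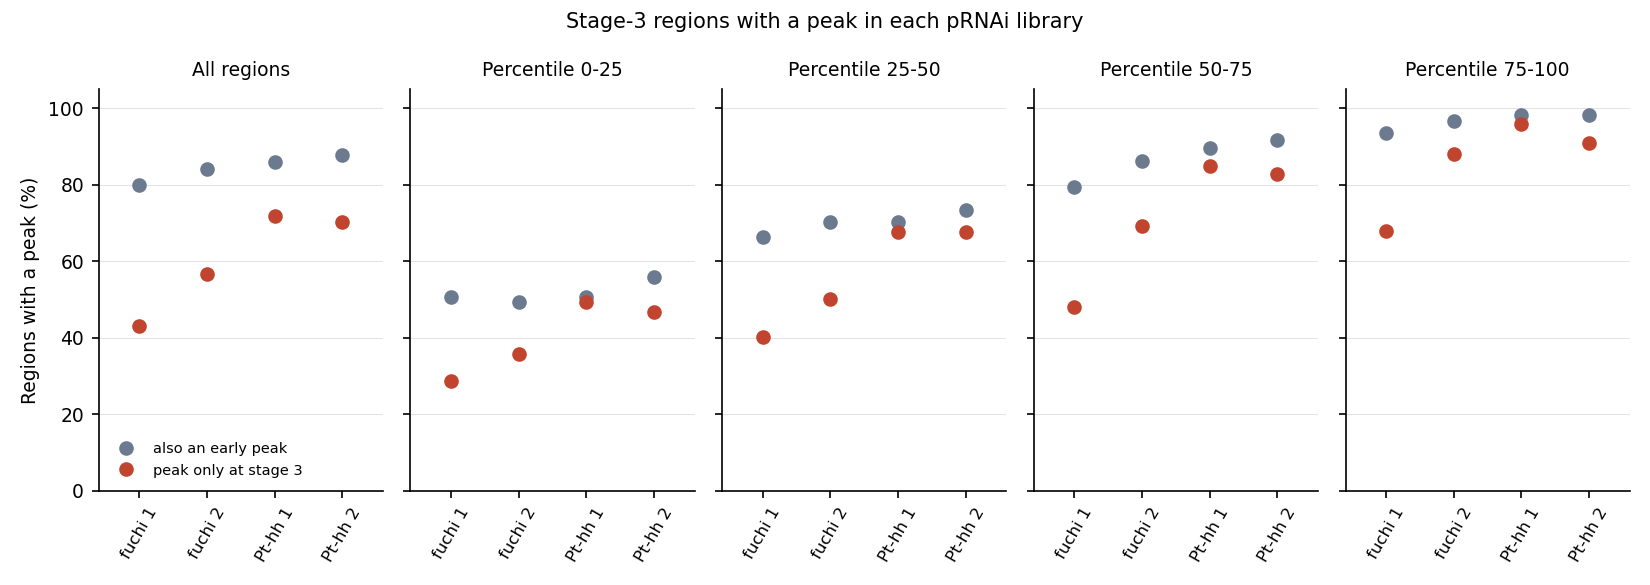
Percentage of stage-3-only regions (red) and other stage-3 regions (grey) with a peak in each pRNAi library, all lists at 10616 peaks, for all regions and within 4 bands of wild-type stage-3 percentile. Each point is 1 library. The red points of *fuchi* pRNAi (43.0% and 56.6% over all regions) lie below those of *Pt-hh* pRNAi (71.9% and 70.2%) in every panel.

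Counted by treatment, 568 stage-3-only regions (32.9%) kept a peak in both *fuchi* pRNAi replicates, where the figure over all 7915 stage-3 regions was 64.1%. Both *Pt-hh* pRNAi replicates had a peak in 1001 (58.0%), against 75.1% over all stage-3 regions. Neither *fuchi* pRNAi replicate had a peak in 575 (33.3%), against 14.0%, and neither *Pt-hh* pRNAi replicate in 273 (15.8%), against 8.35%. The combination of no *fuchi* pRNAi peak with peaks in both *Pt-hh* pRNAi replicates occurred in 218 regions (12.6%, against 5.51%). The opposite combination occurred in 19 (1.10%, against 1.53%). All 4 libraries had a peak in 454 regions (26.3%, against 57.0% over all stage-3 regions) and none of the 4 in 175 (10.1%, against 4.03%).

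A longer list recovers weaker peaks. In the full deposited lists, 36.6% of the stage-3-only regions kept a peak in each *fuchi* pRNAi replicate, against 67.0% over all stage-3 regions. For *Pt-hh* pRNAi the share was 86.5%, nearer to the 92.7% over all stage-3 regions. The mean share per library after *fuchi* pRNAi minus that after *Pt-hh* pRNAi was -36.5 points in the full lists. No *fuchi* pRNAi peak with both *Pt-hh* pRNAi peaks was then found in 326 regions (18.9%, against 7.9% over all stage-3 regions). The *fuchi* pRNAi lists are the shorter ones, so part of this contrast lies in list length, and the values at equal length are the ones compared here.

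Selection in both wild-type stage-3 libraries fixes their share at every region, so the pRNAi shares cannot be set against it. The choice was therefore repeated on 1 wild-type replicate at a time, which left the other as an unused wild-type library at the same list length. Of 4142 regions chosen on replicate 1 with no early peak, 35.5% had a peak in wild-type replicate 2. In the same regions 29.2% and 36.0% had one in the *fuchi* pRNAi replicates and 48.6% and 48.3% in the *Pt-hh* pRNAi replicates. Of 3894 regions chosen on replicate 2, 40.5% recurred in wild-type replicate 1, 24.3% and 36.6% in the *fuchi* pRNAi replicates, and 43.1% and 39.2% in the *Pt-hh* pRNAi replicates. *fuchi* pRNAi replicate 1 was below the unused wild-type library in both selections, by more in the second than in the first. *fuchi* pRNAi replicate 2 was close to it, on either side, and *Pt-hh* pRNAi was at or above it except for replicate 2 in the second selection. Among regions that did have an early peak, the unused wild-type library kept 70.7% and 69.4%, and the pRNAi libraries 69.8% to 77.3%. Against an unused wild-type library, the share after *fuchi* pRNAi was thus lower in both selections for replicate 1 and in 1 of the 2 selections for replicate 2.

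The share kept rose with the number of early lists that held a peak, over a wider range after *fuchi* pRNAi than after *Pt-hh* pRNAi. For stage-3 regions with a peak in 0, 1, 2, 3 and 4 of the early lists, *fuchi* pRNAi replicate 1 kept 43.0%, 62.7%, 80.0%, 91.2% and 97.9%, and replicate 2 kept 56.6%, 72.4%, 82.8%, 91.8% and 98.0%. *Pt-hh* pRNAi replicate 1 kept 71.9%, 79.7%, 83.9%, 89.7% and 95.6%, and replicate 2 kept 70.2%, 81.3%, 85.8%, 91.8% and 96.8%. The *fuchi* pRNAi mean minus the *Pt-hh* pRNAi mean was -21.3, -12.9, -3.39, 0.75 and 1.81 points. Percentile rose along the same order, as given above, and its part in this gradient was not tested.

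**Figure D4:**
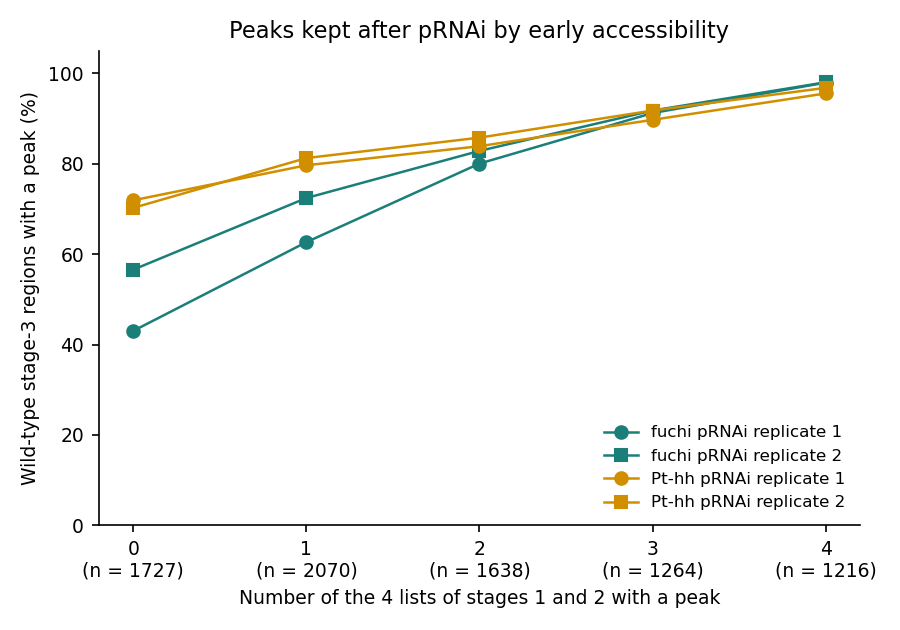
Percentage of wild-type stage-3 regions with a peak in each pRNAi library, by the number of the 4 lists of stages 1 and 2 that also held a peak; 0 marks the 1727 stage-3-only regions. The *fuchi* pRNAi lines (green) start at 43.0% and 56.6% and meet the *Pt-hh* pRNAi lines (yellow, from 71.9% and 70.2%) where 3 or 4 early lists held a peak.

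Within the stage-3-only regions, those with weaker early peaks were also kept more often. For 0, 1, 2, 3 and 4 full early lists with a weaker peak, the share was 29.2%, 45.6%, 46.1%, 53.4% and 77.8% in *fuchi* pRNAi replicate 1, and 44.5%, 56.4%, 62.2%, 69.5% and 77.8% in replicate 2. In *Pt-hh* pRNAi replicate 1 it was 70.1%, 69.0%, 74.5%, 81.7% and 88.9%, and in replicate 2 it was 61.7%, 70.7%, 72.0%, 85.5% and 77.8%. The last of these classes held only 18 regions. The 384 regions with no early peak in any list were the ones with the widest gap between the treatments.

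Strength was also compared where every stage-3 library had a peak, a condition that leaves out the lost peaks. In the 397 stage-3-only regions with a peak in all 6 stage-3 lists at 10616 peaks, the median percentile was 60.7 and 51.3 in the wild-type replicates, 46.7 and 54.7 after *fuchi* pRNAi, and 63.0 and 60.1 after *Pt-hh* pRNAi. The *fuchi* pRNAi medians lay below both *Pt-hh* pRNAi medians, while the wild type overlapped both treatments. Wild-type replicate 2 (51.3) was below *fuchi* pRNAi replicate 2 (54.7), and wild-type replicate 1 (60.7) was above *Pt-hh* pRNAi replicate 2 (60.1). In the 3855 other stage-3 regions with a peak in all 6 lists, the 6 medians lay between 76.1 and 78.2.

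The 326 regions that lacked a *fuchi* pRNAi peak in the full lists while keeping both *Pt-hh* pRNAi peaks had a median width of 543 bp and a median percentile of 37.5. The 5 strongest of them were 618 to 1331 bp wide, all above the median of the stage-3-only set. The first lay at 779786 to 781116 of scaffold NW_018379665.1, with ranks of 1452 and 1013 at stage 3 and 4513 and 7804 after *Pt-hh* pRNAi. The second, at 67745 to 68454 of scaffold NW_018368093.1, ranked 688 and 2323 at stage 3 and 1299 and 1237 after *Pt-hh* pRNAi. Its only early peak was in stage 1 replicate 2, at rank 31422. The region at 416607 to 417224 of scaffold NW_018368479.1 ranked 2716 and 1729, then 1428 and 1448 after *Pt-hh* pRNAi, with an early peak of rank 13760 in stage 1 replicate 2.

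The other 2 of the 5 strongest had no peak in any early list either, so a peak was found at stage 3 alone and not after *fuchi* pRNAi. At 2728747 to 2729484 of scaffold NW_018375680.1, the ranks were 2478 and 1772 in the wild-type and 2140 and 2849 in the *Pt-hh* pRNAi replicates. At 6049357 to 6050020 of scaffold NW_018370506.1, they were 2156 and 2316 in the wild-type and 2048 and 1532 in the *Pt-hh* pRNAi replicates. In the full lists, 102 of the 384 stage-3-only regions without an early peak had this pattern. Over all stage-3-only regions, 18.9% lacked a *fuchi* pRNAi peak and kept both *Pt-hh* pRNAi peaks. The full *fuchi* pRNAi lists are the shorter ones, so part of this count lies in list length. The 102 regions had a median width of 503.5 bp and a median percentile of 34.8, below the 589 bp and 42.4 of the whole set.

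Other regions with no early peak kept a peak after *fuchi* pRNAi. The strongest region with no early peak in any full list, at 8157546 to 8158132 of scaffold NW_018379904.1, ranked 1397 and 1281 at stage 3. It had a peak in all 4 pRNAi libraries, at ranks 9169 and 4364 after *fuchi* pRNAi and 1679 and 1585 after *Pt-hh* pRNAi. The next, at 5719225 to 5720327 of scaffold NW_018380364.1, ranked 510 and 2234 in the wild type, 2609 and 7112 after *fuchi* pRNAi, and 786 and 3092 after *Pt-hh* pRNAi. In the first, both *fuchi* pRNAi peaks stood below all wild-type and *Pt-hh* pRNAi peaks in their lists, and in the second the groups overlapped. Both regions were chosen for high wild-type ranks, as above. The third, at 1233881 to 1235308 of scaffold NW_018368576.1, ranked 1129 and 2043 in the wild type, 8911 and 2563 after *fuchi* pRNAi, and 1014 and 1530 after *Pt-hh* pRNAi. The fourth, at 3458185 to 3458913 of scaffold NW_018369794.1, had a *fuchi* pRNAi peak in replicate 2 only, at rank 4992, beside wild-type ranks of 1347 and 2433 and *Pt-hh* pRNAi ranks of 2552 and 987.

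**Figure D5:**
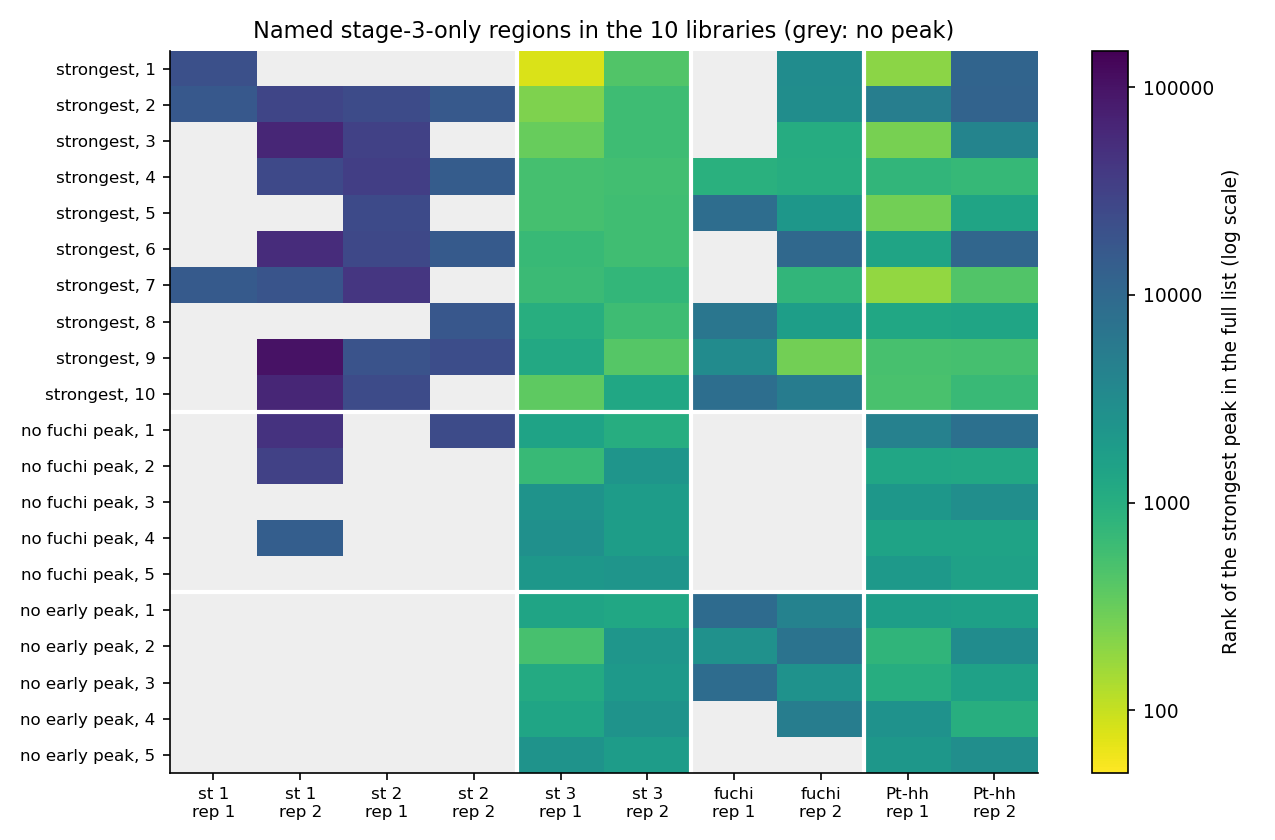
Rank by signal, on a log colour scale, of the strongest peak of each named region in the 10 full lists (yellow, high in the list; dark, low; grey, no peak). The 3 blocks are the 10 strongest stage-3-only regions, the 5 strongest without a *fuchi* pRNAi peak and with both *Pt-hh* pRNAi peaks, and the 5 strongest without an early peak; 1 region stands in both of the last blocks. Peaks missing in *fuchi* pRNAi replicate 1 only are seen among the strongest 10, of which 5 have a peak there and 10 in replicate 2.

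Regions called as lost after *fuchi* pRNAi, defined over the 6 stage-3 libraries at 10616 peaks as those with a peak in all 4 wild-type and *Pt-hh* pRNAi lists and none in the *fuchi* pRNAi lists, numbered 330. Of these, 166 (50.3%) overlapped a stage-3-only region, and 166 of the 1727 stage-3-only regions (9.61%) overlapped one of them, where 4.17% of all stage-3 regions did.

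The stage-3-only regions were spread over 385 of the 674 scaffolds with stage-3 regions and covered 1.26 Mb, which is 17.4% of the length of all stage-3 regions. Among the 30 scaffolds with at least 50 stage-3 regions, their share ran from 10.6% on NW_018373864.1 to 36.8% on NW_018376973.1, with a median of 24.9%. A stage-3-only region lay a median of 20.2 kb from the nearest stage-3 region of any kind and 94.5 kb from the nearest of its own kind. Another stage-3-only region was within 10 kb for 15.1% of them, while 9.58% of the other stage-3 regions had a stage-3-only region that close.

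Runs of neighbours, in which no other stage-3 region lay between, held 720 of the stage-3-only regions (41.7%), and the other 1007 stood alone. A set that makes up 21.8% of the stage-3 regions forms many such runs in random order too, and clustering was not tested. The longest runs had 7 regions. On scaffold NW_018379665.1 such a run covered 173 kb, from 765769 to 938540, and held regions of 664 to 2664 bp, 3 of them packed between 779786 and 788331. None of the 7 had a peak in *fuchi* pRNAi replicate 1 and 1 had a peak in replicate 2 at 10616 peaks, whereas 4 and 3 had one in the *Pt-hh* pRNAi replicates. All 7 had a weaker peak in at least 1 early list. The other run of 7, on scaffold NW_018376973.1 from 638543 to 850923, consisted of narrower regions (361 to 1221 bp), of which 4 and 2 had a peak in the *fuchi* pRNAi replicates and 6 and 5 in the *Pt-hh* pRNAi replicates. Runs as a whole did not show the pattern of the first: regions in runs of 2 or more kept a peak in 42.5% and 59.2% of cases after *fuchi* pRNAi, close to the 43.4% and 54.7% of those that stood alone.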

How the data were processed

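ATAC-seq peaks of 10 libraries were used. According to the methods and the labels, reads were trimmed by the authors (Trim Galore!), aligned by bowtie2 (version 2.2.5) to the assembly Ptep_2.0, removed alignments with mapping quality under 30 and duplicates, and called peaks per library with Genrich in ATAC-seq mode, without a control and without pooling. The deposited signal, the authors' area value for each peak, ranked the peaks within a list. The deposited −log10 p-value at the summit served as an alternative ranking. Neither value is comparable between libraries, and list length depends on depth and library quality as well as accessibility, so lists were compared at equal length (12494 peaks for the wild type, 10616 for pRNAi).

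Overlapping peaks were merged and counted in Python 3.11.15 (pandas 2.3.3, scipy 1.17.1), and the counting was tested on simulated data. A region had a peak in a library if it overlapped one by at least 1 bp. The exact permutation tests ran over libraries, never over regions. Since the labels do not say that replicates came from separate mothers, the p-values measure only the spread between these libraries. Regions named were the 10 members with the highest mean stage-3 percentile, the 5 highest without a peak in either full *fuchi* pRNAi list and with both *Pt-hh* pRNAi peaks, the 5 highest without any early peak, and those at the limits; not all of these are described singly, and the broad regions and the runs were added after their values were seen. The members, rules and alternatives were chosen with earlier results of these data known. Genes near the regions and their sequences were not analysed here.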

Additional observations from a re-analysis of the deposited data

How the results depend on the processing

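Of 117 alternative values, 71 stayed within the limits set for an unchanged value, 46 moved and 0 turned in direction. Only the differences in share could turn, because counts, shares, widths and percentiles are never negative. The number of stage-3-only regions depended strongly on list length: 903 with lists of 6247 peaks (22.8% of stage-3 regions) and 598 with all deposited peaks (6.27%), under which 433 and 384 of the 1727 regions were recovered. Ranking by p-value gave a similar count of 1618 but recovered only 1047 of them (60.6%), whereas an overlap of at least 50% recovered 99.3% and windows of 200 bp 87.4%. With these windows, placed around the summits, the share of stage-3 regions was 26.7%. Peaks in both *fuchi* pRNAi lists were found in 17.1% with all deposited peaks. For both *Pt-hh* pRNAi lists the share was 69.7% with all deposited peaks, 63.4% when ranked by p-value and 86.5% with full pRNAi lists. A weaker early peak was found for 94.0% with lists of 6247 peaks, 75.5% with an overlap of at least 50% and 65.4% with windows. The median width was 699 bp with lists of 6247 peaks and 226 bp with windows, and the median percentile was 48.1 when ranked by p-value.

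With each library left out in turn, the count ran from 1950 to 4142 and rose by more than 1.5 times without stage 2 replicate 1 (2615), stage 3 replicate 1 (3894) or stage 3 replicate 2 (4142). The share of stage-3 regions ran from 24.6% to 33.5%, and that with a weaker early peak from 62.2% to 75.4%. The share with both *fuchi* pRNAi peaks ran from 17.0% to 56.6%, and that with both *Pt-hh* pRNAi peaks from 30.4% to 71.9%. The upper ends, 56.6% and 71.9%, came without *fuchi* pRNAi replicate 1 and without *Pt-hh* pRNAi replicate 2. They are therefore shares of the 1 library left, not of both. The low ends of the shares after pRNAi came without a stage-3 library: 17.0% and 18.8% for *fuchi* pRNAi and 30.4% and 34.9% for *Pt-hh* pRNAi without replicates 1 and 2. The difference of *fuchi* pRNAi minus *Pt-hh* pRNAi was -44.6 points with all deposited peaks and -36.5 points with full pRNAi lists. Leaving out libraries it ran from -28.1 to -10.7 points, the latter without stage 3 replicate 1, and that of stage-3-only minus other regions from -35.7 to -19.7 points. The median width ran from 500.0 to 600.0 bp and the median percentile from 31.9 to 46.4. With the replicate number as a block, the replicate block kept the difference at -21.3 points with an exact permutation p of 0.5, the smallest that 2 pairs allow. Leaving out an early library removes a list that could exclude a region. Leaving out a stage-3 library asks for a peak in the remaining stage-3 list alone. Both omissions loosen the rule, so the counts and shares without a wild-type library are not a spread between libraries. Any further cause of these shifts was not tested, apart from the number of peaks that each setting admits.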
